A study of Mus musculus with 7 samples.

Results

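The hypoxia-inducible factor (HIF) pathway and glycolysis were followed through 36 genes of the 47643 in a deposited table of TPM (transcript abundance scaled by gene length and to the same total in each library) from mouse alveolar macrophages, which live in the air sacs and clear particles and surfactant. The genes were taken by symbol, and all 36 were found: 5 HIF factors and regulators, 2 transporters for glucose and lactate, 17 enzymes from hexokinase to lactate dehydrogenase, 3 regulators of glycolytic flux and 9 other HIF targets. Libraries came from lung cells labelled as CD11c+, F480+ and SiglecF+. There were 3 wild-type (WT) libraries, 3 of genotype cSiah1a/2f/f::Lyz2cre (Lyz2cre below) and 1 of genotype cSiah1a/2f/f::CD11ccre (CD11ccre below). The f/f alleles of Siah1a and Siah2 are cut by Cre recombinase, which Lyz2, the lysozyme M gene, drives in myeloid cells at large and CD11c drives in alveolar macrophages and dendritic cells. The labels name no strain, age or treatment, do not say whether WT carried a Cre, and leave unsaid whether each replicate was its own animal, so the spread behind the p-values may be technical. TPM keeps no record of depth, so depth is unknown and no counting interval is given.

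HIF is a dimer of an oxygen-regulated alpha subunit, encoded by Hif1a or Epas1, and a stable partner encoded by Arnt. In normoxia, prolyl hydroxylases mark the alpha subunit for the ubiquitin ligase that contains Vhl, while Hif1an blocks its coactivators. When the mark is missing, HIF binds hypoxia response elements and raises genes of glucose uptake, glycolysis, lactate export and mitophagy. Siah1a and Siah2 are RING-type ubiquitin ligases known to degrade some of those prolyl hydroxylases, which places them upstream of HIF protein. These steps act on protein, and only RNA was measured here.

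The alveolar macrophage label held, since all 14 identity markers listed for these cells were at 53.87 TPM or more in every library, though 4 of them rose and 4 fell in Lyz2cre. Siglecf, the gene of the labelled SiglecF, fell from 210.72-256.5 TPM in WT to 65.48-106.62 in Lyz2cre (limma adjusted p = 0.00746). It was 53.87 TPM in CD11ccre. The genes of CD11c and F480, Itgax and Adgre1, were not called in Lyz2cre. Siah1a and Siah2 fell in both Cre lines, from 6.72-16.59 and 12.69-17.33 TPM in WT to at most 0.05 and 1.95 TPM. Lyz2 itself ran from 72.56 to 86.25 TPM across WT and from 46.62 to 61.89 across Lyz2cre, against 50676 in CD11ccre, so CD11ccre and WT differed in Lyz2 as well as in Siah1a and Siah2, and the parts of these in a difference cannot be told apart. In Lyz2 the WT libraries thus stood near Lyz2cre and far below CD11ccre, and whether WT carried the Cre that is inserted in Lyz2 was not tested. Mitochondrially encoded genes took 7.54% to 9.25% of the TPM in WT, 2.67% to 4.61% in Lyz2cre and 4.23% in CD11ccre. Summed markers were lower in every Lyz2cre library than in WT for lymphocytes (12 genes, 6.78 to 25.5 TPM in WT and 0.42 to 4.84 in Lyz2cre), dendritic cells (8 genes, 6.38 to 24.9 and 2.26 to 6.06) and club and ciliated cells (7 genes, 382 to 552 and 152 to 379). In each of these lists 1 gene fell by limma in Lyz2cre, namely Igkc (adjusted p = 0.0315), Batf3 (0.0374) and Tppp3 (0.0244), and among the 9 monocyte and interstitial macrophage markers Ccr2 fell (0.0360). The other dendritic cell markers were at most 2.14 TPM, with Clec9a higher in Lyz2cre (1.51-2.14 TPM) than in WT (0.51-0.65 TPM). Among the club and ciliated markers, Tppp3 measured 200.41-386.21 TPM in WT and 55.93-113.41 in Lyz2cre. The club marker Scgb1a1 overlapped, at 105.21-185.6 TPM in WT and 84.98-254.05 in Lyz2cre. Scgb3a1 was higher in every Lyz2cre library (3.88-8.65 TPM) than in WT (0-3.76 TPM), and the rest of that list overlapped. The part of these in the results was not tested. The median difference over the 11397 genes with a mean of at least 1 TPM was -0.16 in Lyz2cre against WT and -0.29 in CD11ccre against WT, both in log2(TPM + 1). With median-of-ratios scaling, which centres the libraries on their shared genes, these medians became -0.0008 and -0.0055, so differences are also given relative to the all-gene median.

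In Lyz2cre against WT, 3 HIF pathway and glycolysis genes rose and 0 fell: Epas1, the second HIF alpha gene, Hk3, a hexokinase of myeloid cells, and Pgam1, the phosphoglycerate mutase of glycolysis. The other 30 of the 33 genes tested did not pass limma at an adjusted p of 0.05, and Pfkm, Ddit4 and Ndrg1 averaged below 1 TPM and were not tested. The 3 calls were 9.09% of the genes tested, beside 6.76% of all tested genes called in either direction, 2.17% called higher and 4.6% called lower. The median of the 33 differences was -0.10 against -0.16 over all genes. In CD11ccre against WT only Epas1 passed, 1 of 33 (3.03%) beside 2.89% of all genes (0.895% higher and 1.99% lower), and the median was 0.05 against -0.29. In each of these comparisons 12 of the 33 genes (36.4%) had an unadjusted p below 0.05, beside 24.6% of all genes in Lyz2cre and 22.3% in CD11ccre.

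**Figure D1:**
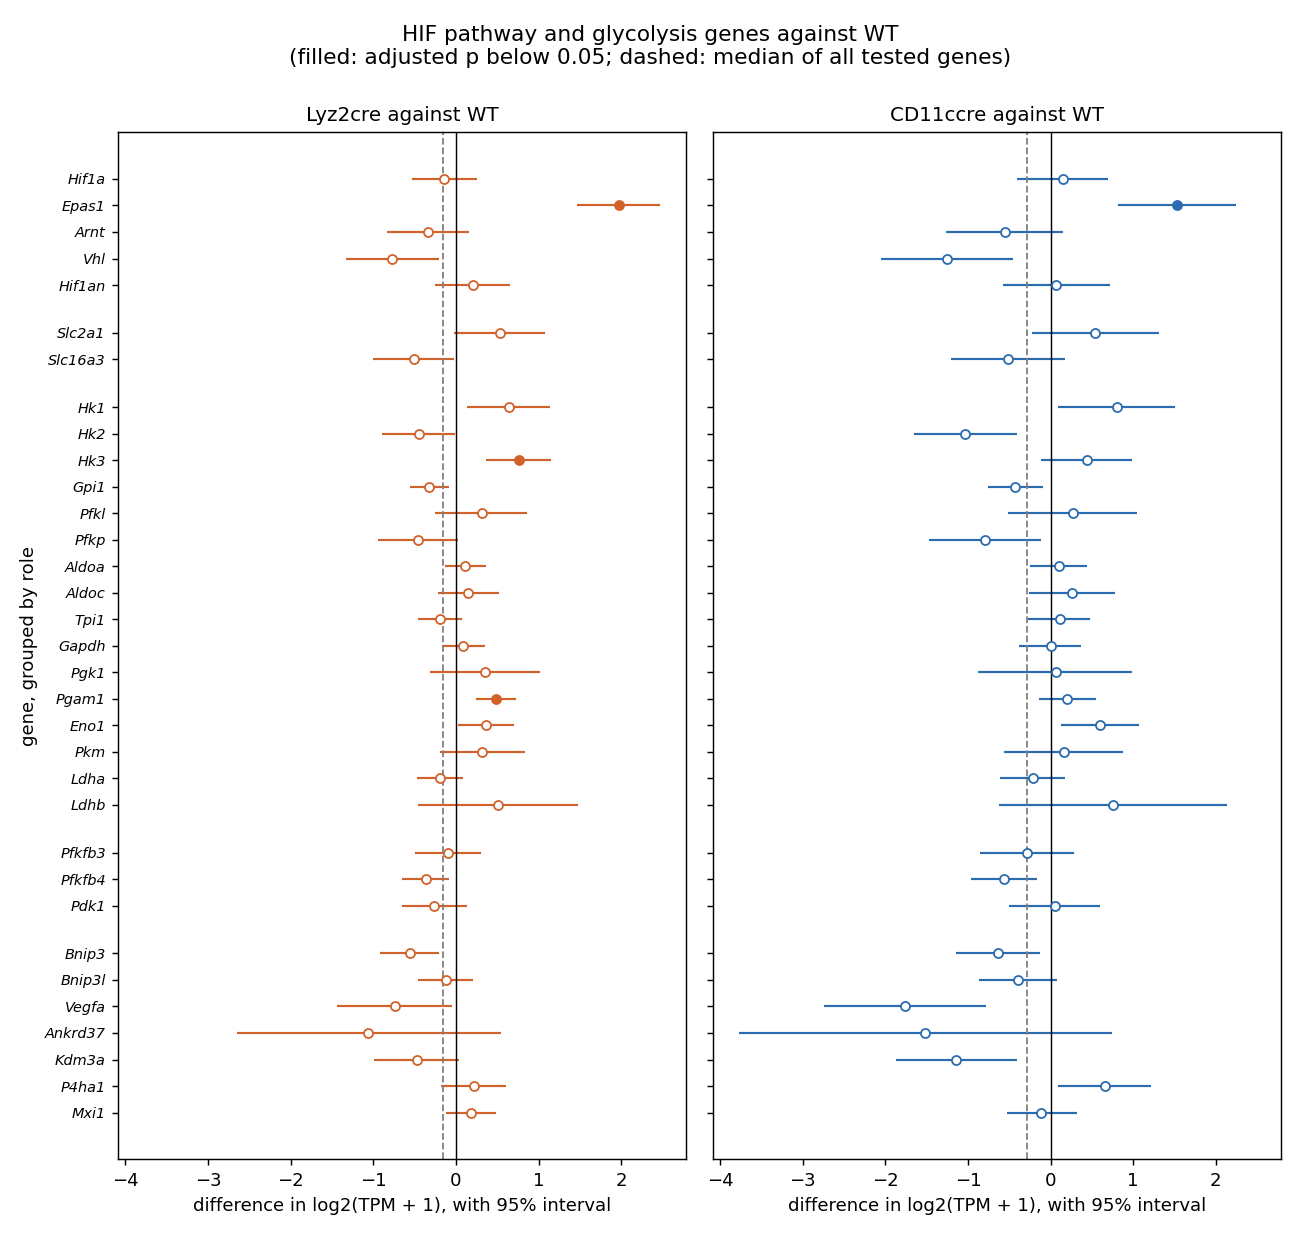
Differences in log2(TPM + 1) from WT for the 33 tested genes in Lyz2cre (left, orange) and CD11ccre (right, blue), grouped by role, with 95% intervals from limma. Filled points passed an adjusted p of 0.05, and the dashed line is the median of all 11397 tested genes. Epas1 stands farthest right in both panels, and Hk3 and Pgam1 are the other filled points, in Lyz2cre.

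Counted by overlap instead of by test, 13 of the 33 genes (39.4%) had Lyz2cre libraries that were all above or all below the WT libraries, beside 30.8% of all tested genes. The libraries were all higher for 7 genes (21.2%, beside 7.45% of all genes) and all lower for 6 (18.2%, beside 23.3%). Over all 33, CD11ccre lay above the WT range for 11 (33.3%, beside 13% of all genes) and below it for 14 (42.4%, beside 50.5%), where 63.5% of all genes lay outside. The genes shared no common direction, and each role is described in turn below. Both Cre lines were compared with the same 3 WT libraries, so their values stand side by side and are not independent of each other.

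Among the HIF factors, Epas1 had the largest difference of the 33 genes tested in Lyz2cre against WT. Epas1 (ENSMUSG00000024140, chromosome 17, 86753700 to 86833410, plus strand, mm10) measured 7.58, 10.9 and 7.19 TPM in the WT libraries, 29.63, 34.98 and 44.31 in the Lyz2cre libraries and 26.26 in CD11ccre. Every Cre library was above every WT library, with the lowest Cre value more than double the highest WT value. Mean TPM rose 4.24-fold in Lyz2cre, with a log2 difference of 1.97 ± 0.21 (SE; limma adjusted p = 0.00496), or 2.13 relative to the all-gene median. The call held in all 17 alternative settings, with adjusted p from 0.00205 to 0.0365. In CD11ccre the level was 3.07-fold that of WT, with a log2 difference of 1.53 ± 0.30 (SE; limma adjusted p = 0.0472). That call was lost on leaving out any single WT or Lyz2cre library, with limma adjusted p from 0.0681 to 0.116. It also ended when mitochondrially encoded genes, Ftl1, Fth1 and Chil3 were removed before rescaling (limma adjusted p = 0.0510, difference 1.62), while the Lyz2cre difference was 2.08 there (limma adjusted p = 0.00466).

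Epas1 is also abundant in endothelium, whose defining markers were at or near 0 in these libraries. The 11 endothelial and fibroblast markers summed to 8.33-13.9 TPM across WT, 7.44-9.80 across Lyz2cre and 15.5 in CD11ccre, with 6 of the 11 below 1 TPM in every library. The endothelial cadherin Cdh5 and the receptors Kdr and Tie1 were listed at 0 in all WT libraries and reached at most 0.18, 0.03 and 0.1 TPM elsewhere. The 9 markers of alveolar type 2 cells, another cell type that expresses Epas1, summed to 88.4-95.8 TPM across WT and 78.6-97.3 across Lyz2cre, which overlapped. In CD11ccre the sum was 72.3 TPM, below both ranges. Of the 9 markers, Sftpa1 and Sftpb were each higher in every Cre library than in WT. Sftpa1 stood at 4.83-8.44 against 1.4-4.61 TPM, and Sftpb at 3.75-5.56 against 0.89-2.32 TPM. Sftpc ran from 12.8 to 23.83 TPM across WT and from 19.36 to 37.0 across Lyz2cre, which overlapped. Its Lyz2cre mean was 1.64-fold the WT mean, and CD11ccre stood at 24.03 TPM. Sftpd, too low to be tested, was at most 0.37 TPM across WT and ran from 0.34 to 2.81 across Lyz2cre. Napsa, the largest of the 9 in every WT library, was lower in every Cre library, at 18.25-39.04 TPM against 43.56-59.15 TPM. Abca3 overlapped between WT and Lyz2cre. The overlap of the sums therefore does not show that the single markers were unchanged. None of Sftpa1, Sftpb, Sftpc and Napsa passed limma. Their part in the Epas1 result was not tested. In bulk libraries a change in the number of cells that hold a transcript and a change in the amount per cell cannot be told apart.

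The other HIF factors did not pass the test. Hif1a measured 37.5, 28.29 and 37.71 TPM in the WT libraries, 31.38, 27.08 and 34.84 in the Lyz2cre libraries and 37.96 in CD11ccre, so the groups overlapped. Its log2 difference in Lyz2cre was -0.14, with a 95% interval from -0.53 to 0.25, and with median-of-ratios scaling it was 0.04. In WT, Hif1a was thus the more abundant HIF alpha transcript per length in each library, as it was in CD11ccre, while in Lyz2cre Epas1 was the higher in 2 of 3 libraries. Arnt, the shared partner, measured 15.55, 14.94 and 18.61 TPM in the WT libraries, 13.17, 16.19 and 9.56 in the Lyz2cre libraries and 10.78 in CD11ccre (limma adjusted p = 0.379 in Lyz2cre and 0.323 in CD11ccre).

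Vhl, the substrate receptor that hands HIF alpha to the proteasome, measured 22.06, 34.59 and 31.99 TPM in the WT libraries, 14.22, 22.28 and 14.37 in the Lyz2cre libraries and 11.59 in CD11ccre. WT and Lyz2cre touched at their ends and overlapped by 1 library each, and CD11ccre was below both groups. Its log2 difference was -0.77 ± 0.24 (SE; limma adjusted p = 0.103) in Lyz2cre and -1.25 ± 0.34 (SE; limma adjusted p = 0.0912) in CD11ccre, and it passed in none of the alternatives run. Hif1an, the asparaginyl hydroxylase, was low in every library, at 4.37-5.64 TPM in WT and 5.37-6.41 TPM in Lyz2cre (limma adjusted p = 0.558).

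**Figure D2:**
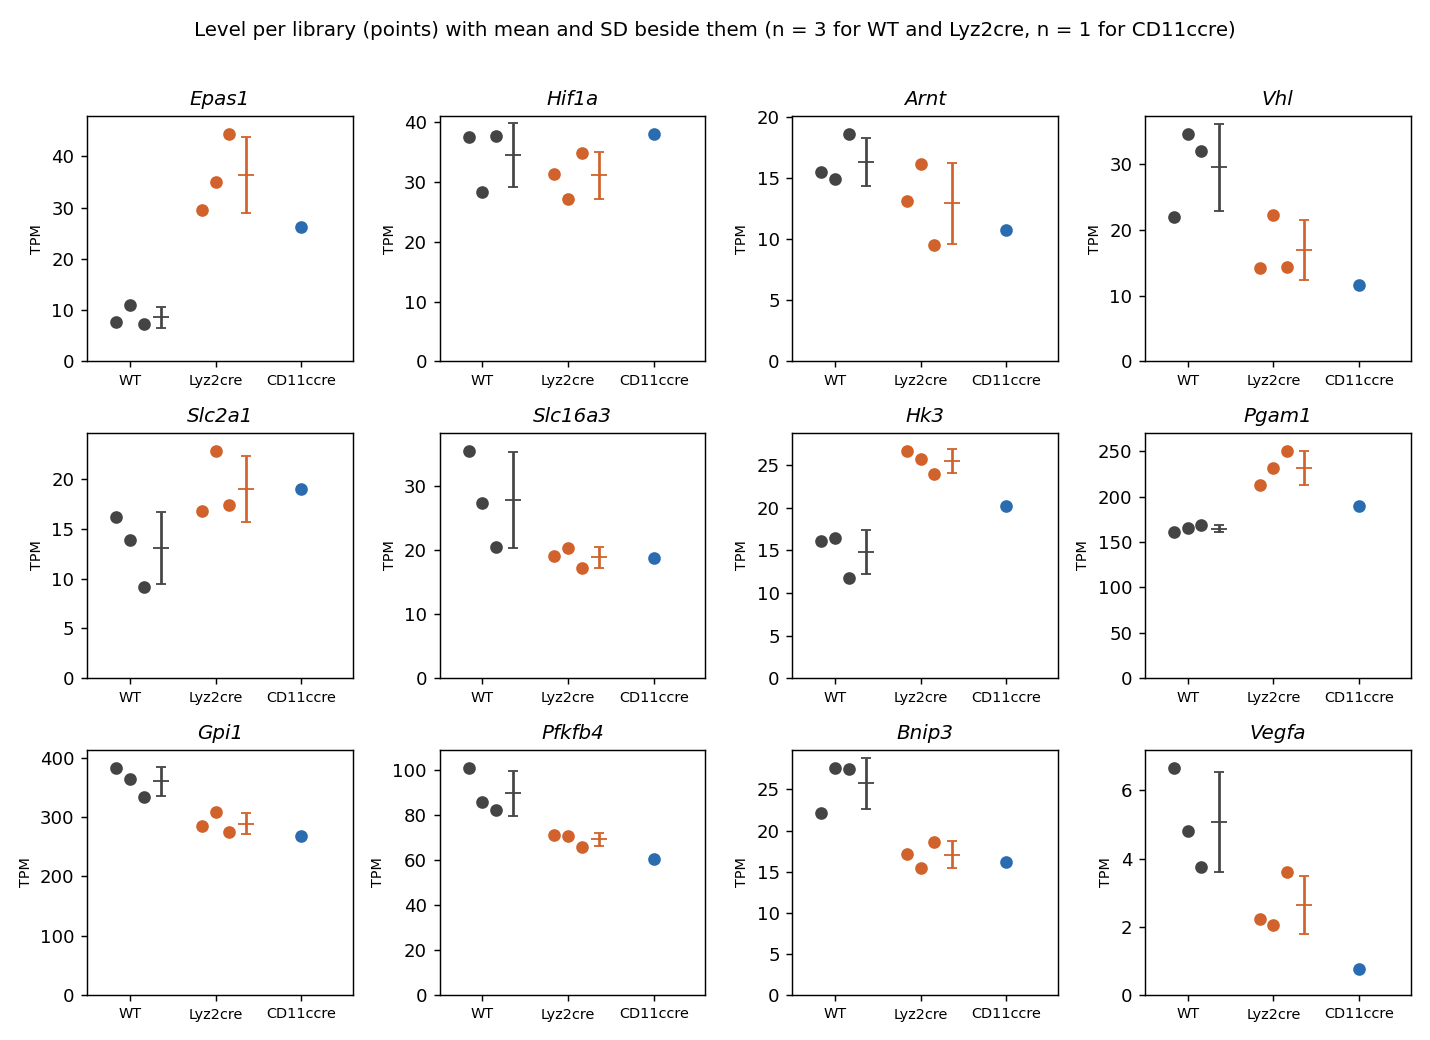
TPM of 12 genes in each library (points), with the mean and SD beside the groups of 3, for WT (grey), Lyz2cre (orange) and CD11ccre (blue, 1 library); every axis starts at 0. Epas1, Hk3, Pgam1 and Slc2a1 have all Lyz2cre points above the WT points, Slc16a3, Gpi1, Pfkfb4, Bnip3 and Vegfa have them all below, and Hif1a, Arnt and Vhl overlap.

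At the cell surface, the glucose importer and the lactate exporter had opposite signs. Slc2a1, which encodes the glucose transporter GLUT1, measured 16.19, 13.9 and 9.14 TPM in the WT libraries, 16.76, 22.82 and 17.43 in the Lyz2cre libraries and 18.98 in CD11ccre. Slc16a3, which encodes the lactate exporter MCT4, measured 35.54, 27.45 and 20.58 TPM in the WT libraries, 19.08, 20.39 and 17.17 in the Lyz2cre libraries and 18.84 in CD11ccre. The WT and Lyz2cre libraries did not overlap for either gene but came close, with Slc2a1 at 16.19 TPM in the highest WT and 16.76 TPM in the lowest Lyz2cre library. The log2 differences of 0.53 for Slc2a1 and -0.51 for Slc16a3 in Lyz2cre did not pass limma (adjusted p = 0.216 and 0.188).

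Hexokinase, the enzyme that traps glucose in the cell, differed between groups in the makeup of its 3 genes, while their sum overlapped. Hk3 (chromosome 13, 55005985 to 55021385, minus strand) measured 16.13, 16.42 and 11.79 TPM in the WT libraries, 26.68, 25.79 and 23.95 in the Lyz2cre libraries and 20.22 in CD11ccre. It rose 1.72-fold in Lyz2cre, with a log2 difference of 0.76 ± 0.17 (SE; limma adjusted p = 0.0409), and the difference in CD11ccre was 0.44 (limma adjusted p = 0.316). The Hk3 call was lost on leaving out any single library of these 6, with limma adjusted p from 0.0638 to 0.129. Hk3 is also found in neutrophils. Of the neutrophil markers, Ly6g, Elane and Camp were listed at 0 in every library, while Mpo, Ltf and Retnlg reached at most 1.43, 3.17 and 1.82 TPM. The 10 neutrophil markers summed to 45.02-94.31 TPM across WT, 109-142 across Lyz2cre and 106 in CD11ccre. S100a8 led them in the Cre libraries, at 80.88-126.83 TPM, and rose in Lyz2cre (limma adjusted p = 0.00985), while Csf3r fell (limma adjusted p = 0.0392). In every Cre library Cxcr2 was higher than in WT (3.82-7.41 against 1.3-3.77 TPM) and S100a9 lower (1.16-6.9 against 10.67-37.91 TPM). Neither Cxcr2 nor S100a9 passed limma in Lyz2cre. Their part in the Hk3 result was not tested. Hk1, the hexokinase of most tissues, was the lowest of the 3, with 4.96, 4.11 and 3.09 TPM in the WT libraries, 7, 6.17 and 7.15 in the Lyz2cre libraries and 7.7 in CD11ccre. Its libraries did not overlap, but it did not pass (log2 difference 0.64, limma adjusted p = 0.123). Hk2, the HIF-responsive hexokinase, lay on the other side, with 32.44, 25.82 and 20.59 TPM in the WT libraries, 20.34, 17.87 and 17.98 in the Lyz2cre libraries and 12.14 in CD11ccre. Its log2 difference of -0.45 in Lyz2cre and -1.03 in CD11ccre did not pass either (limma adjusted p = 0.195 and 0.0833).

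Read as shares of the hexokinase TPM within each library, where any scaling of the whole library cancels, the groups separated more widely. Hk2 made up 60.6%, 55.7% and 58.0% in WT, 37.7%, 35.9% and 36.6% in Lyz2cre and 30.3% in CD11ccre. Hk3 made up 30.1%, 35.4% and 33.2% in WT, 49.4%, 51.8% and 48.8% in Lyz2cre and 50.5% in CD11ccre. The leading hexokinase transcript was thus Hk2 in every WT library and Hk3 in every Cre library. The mean Hk2 share differed by -21.4 percentage points between Lyz2cre and WT, against SDs of 2.45 and 0.898 (n = 3 each). The Hk1 share ran from 8.71% to 9.27% in WT and from 12.4% to 14.6% in Lyz2cre. The summed TPM of the 3 genes overlapped, at 35.5-53.5 in WT, 49.1-54.0 in Lyz2cre and 40.1 in CD11ccre. The exact two-sided permutation test gave p = 0.1 for each of the 3 shares, the smallest that 3 against 3 libraries allow, and 0.18 adjusted over the 9 shares computed in 5 families.

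**Figure D3:**
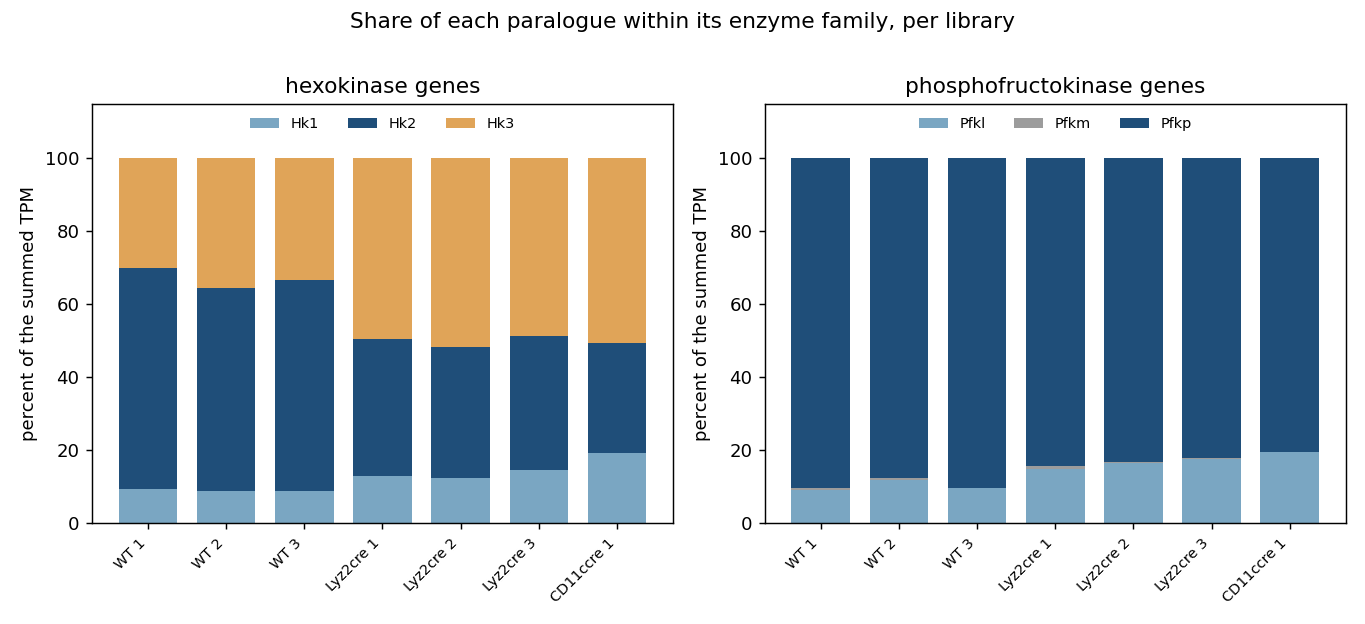
Percent of the summed TPM taken by each gene of the hexokinase (left) and phosphofructokinase (right) families, 1 bar per library. Hk2 fills 55.7% to 60.6% of the hexokinase bar in WT and 30.3% to 37.7% in the Cre libraries, and Pfkl fills 9.09% to 11.8% of the phosphofructokinase bar in WT and 15.0% to 19.4% in the Cre libraries.

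Phosphofructokinase, the main control point of glycolysis, showed a smaller difference in the balance of its liver-type gene Pfkl and its platelet-type gene Pfkp. Pfkp measured 155.98, 148.84 and 97.27 TPM in the WT libraries, 102.63, 104.26 and 80.68 in the Lyz2cre libraries and 75.31 in CD11ccre, with overlapping groups (limma adjusted p = 0.220). Pfkl ran from 10.38 to 20.11 TPM in WT and from 17.19 to 20.79 TPM in Lyz2cre (limma adjusted p = 0.471). As shares, Pfkp took 90.4%, 87.7% and 90.3% in WT, 84.2%, 83.2% and 82.1% in Lyz2cre and 80.6% in CD11ccre. The WT and Lyz2cre shares did not overlap (exact permutation p = 0.1, the smallest possible, and 0.18 adjusted over the 9 shares). The muscle-type Pfkm stayed below 1 TPM in every library.

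Further down the pathway, Pgam1 (chromosome 19, 41911923 to 41918660, plus strand), which moves the phosphate of phosphoglycerate, rose. It measured 160.64, 165.61 and 168.37 TPM in the WT libraries, 212.65, 231.42 and 250.46 in the Lyz2cre libraries and 190.12 in CD11ccre. Both Cre lines were above all WT libraries, with CD11ccre between the groups. The rise was 1.40-fold in Lyz2cre, with a log2 difference of 0.48 ± 0.10 (SE; limma adjusted p = 0.0384), while CD11ccre gave 0.20 (limma adjusted p = 0.445). The Pgam1 call too was lost on leaving out any single library of these 6, with limma adjusted p from 0.0643 to 0.127.

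The neighbouring steps did not pass. Eno1, the enolase that follows Pgam1, measured 330.35, 324.69 and 244.21 TPM in the WT libraries, 374.04, 420.27 and 358.27 in the Lyz2cre libraries and 450.41 in CD11ccre, without overlap (log2 difference 0.37, limma adjusted p = 0.171). Gpi1, the isomerase after hexokinase, lay on the other side, with 382.75, 363.84 and 333.76 TPM in the WT libraries, 284.27, 307.76 and 274.53 in the Lyz2cre libraries and 267.34 in CD11ccre (log2 difference -0.32, limma adjusted p = 0.110, or -0.15 relative to the all-gene median). WT and Lyz2cre libraries did not overlap for 6 of the 16 enzyme genes tested (37.5%, beside 30.8% of all genes). Lyz2cre was higher for 4 (25.0%, beside 7.45%) and lower for 2 (12.5%, beside 23.3%). Of these 6 genes, Hk3 and Pgam1 passed the test, while Hk1, Hk2, Gpi1 and Eno1 did not.

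The most abundant enzyme transcripts were those of aldolase, glyceraldehyde-phosphate dehydrogenase, lactate dehydrogenase and pyruvate kinase, and their WT and Lyz2cre libraries overlapped. Aldoa ran from 1032 to 1279 TPM in WT and from 1202 to 1283 TPM in Lyz2cre, and Gapdh, often used as a reference gene, from 648 to 657 TPM and from 624 to 797 TPM. Ldha, which makes lactate, ran from 521 to 670 TPM in WT and from 499 to 558 TPM in Lyz2cre. Pkm ran from 298 to 533 TPM in WT and from 478 to 568 TPM in Lyz2cre. In CD11ccre, Aldoa, Gapdh and Pkm lay within the WT range, and Ldha lay below it at 519.84 TPM. The limma adjusted p-values for these 4 genes in Lyz2cre lay between 0.370 and 0.669, and the 95% intervals of their log2 differences lay within -0.47 and 0.84. Tpi1 and Aldoc overlapped between WT and Lyz2cre too, while Tpi1 in CD11ccre was above both groups at 174.54 TPM. Ldhb stayed at or below 4.86 TPM, so that Ldha took at least 99.1% of the lactate dehydrogenase TPM in every library. Summed over the 17 enzymes, the TPM was 4594, 4309 and 3666 in WT, 4383, 4653 and 4171 in Lyz2cre and 4260 in CD11ccre, a range that overlapped.

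**Figure D4:**
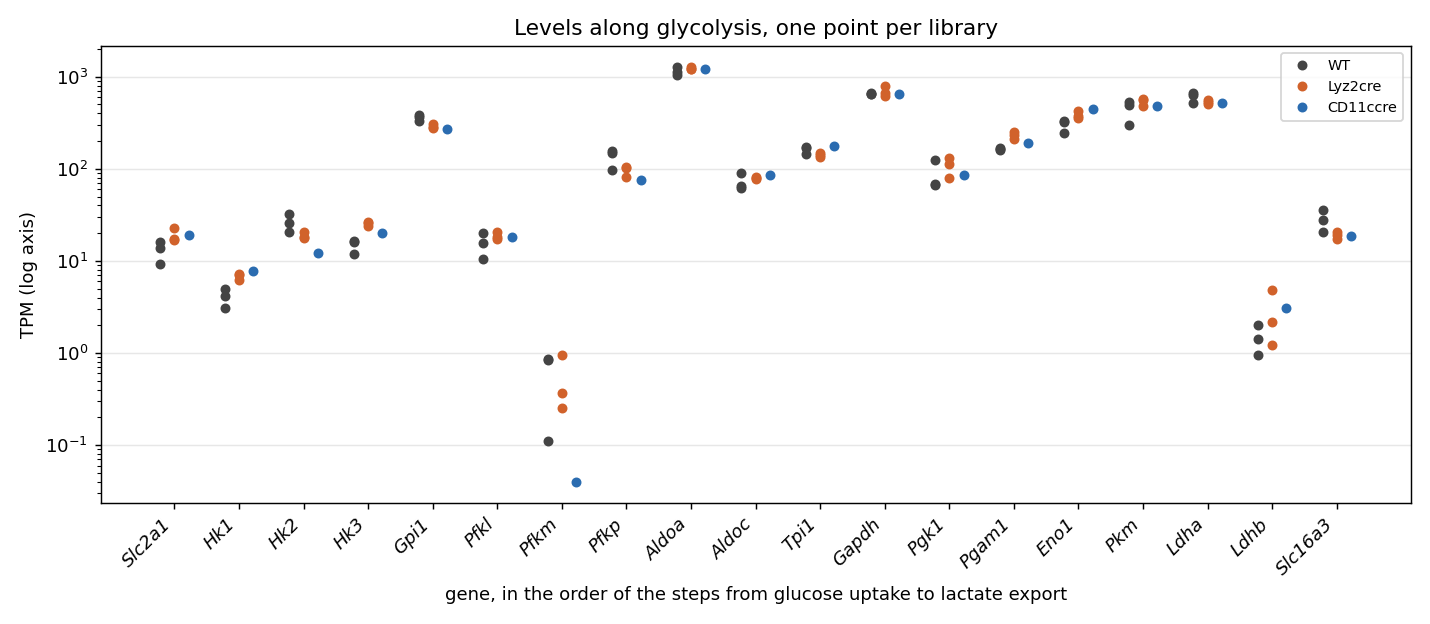
TPM of the transporters and enzymes in the order of the steps from glucose uptake to lactate export, on a log axis, 1 point per library in WT (grey), Lyz2cre (orange) and CD11ccre (blue). Levels span from Pfkm, below 1 TPM, to Aldoa, at 1032 TPM or more, and the 3 groups lie close together at most steps.

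The Pgk1 values are uncertain, because much of the phosphoglycerate kinase signal was assigned to copies of the gene. Pgk1 measured 123.07, 67.49 and 67.64 TPM in the WT libraries, 132.1, 78.73 and 113.94 in the Lyz2cre libraries and 86 in CD11ccre. Its near-identical copies Pgk1-rs7 and Gm5537 (at least 95% identity over 300 bases or more of transcript) together stood at 51.42, 83.43 and 71.63 TPM, 20.02, 61.39 and 37.54 TPM, and 86.44 TPM. Within each group of 3, the library with the highest Pgk1 value had the lowest copy value. With the copies added, the spread shrank to 155 ± 17.9 TPM over WT and 148 ± 6.75 over Lyz2cre (SD, n = 3 each), beside an SD of 32.0 and 27.1 TPM for Pgk1 alone. In all, 11 of the 36 genes had such copies. For the others with at least 10 TPM, the copies summed to at most 6.63% of the gene in any library, Pgam1 included at 0.785% or less.

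**Figure D5:**
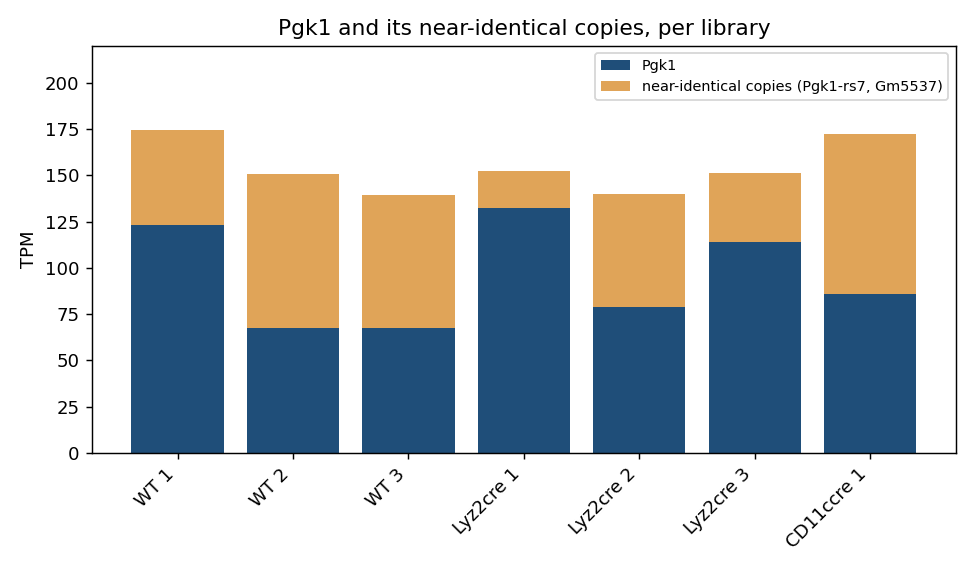
TPM of Pgk1 (blue) stacked with that of its near-identical copies Pgk1-rs7 and Gm5537 (yellow), 1 bar per library. The blue part runs from 67.49 to 132.1 TPM, while the full bars run only from 139 to 174 TPM.

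None of the 3 regulators of glycolytic flux passed limma, and Pfkfb4 alone had an unadjusted p below 0.05, in both Cre lines (1 of 3, beside 24.6% and 22.3% of all genes). Pfkfb4, a bifunctional enzyme that sets the level of a sugar phosphate that activates phosphofructokinase, was the most abundant of them. It measured 100.8, 85.47 and 82.23 TPM in the WT libraries, 70.81, 70.62 and 65.77 in the Lyz2cre libraries and 60.18 in CD11ccre. Every Cre library was below every WT library, and the log2 difference was -0.36 in Lyz2cre (limma adjusted p = 0.121) and -0.56 in CD11ccre (limma adjusted p = 0.121). Relative to the all-gene median these were -0.20 and -0.27. Its paralogue Pfkfb3 ran from 10.01 to 12.94 TPM in WT and from 9.58 to 11.45 TPM in Lyz2cre. Pdk1, a kinase that limits the use of pyruvate in mitochondria, ran from 14.74 to 15.36 TPM in WT and from 10.87 to 15.16 TPM in Lyz2cre (limma adjusted p = 0.387).

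Of the 9 other HIF targets, 7 were tested and none passed limma in either Cre line. At an unadjusted p below 0.05 there were 2 in Lyz2cre (28.6%, beside 24.6% of all genes), both lower than WT, and 4 in CD11ccre (57.1%, beside 22.3%), of which Bnip3, Vegfa and Kdm3a were lower and P4ha1 higher. In Lyz2cre, the median log2 difference of the 7 was -0.47, beside -0.16 over all genes. Bnip3, a mitophagy receptor and a classic HIF target, measured 22.16, 27.63 and 27.49 TPM in the WT libraries, 17.09, 15.47 and 18.66 in the Lyz2cre libraries and 16.14 in CD11ccre. Every Cre library lay below WT, with a log2 difference of -0.56 ± 0.15 (SE; limma adjusted p = 0.0737), and adjusted p stayed above 0.05 in all 17 alternatives (0.0588 to 0.241). Its paralogue Bnip3l was far more abundant per length, at 226-323 TPM over all libraries, and overlapped between groups, so that Bnip3 took at most 9.15% of the summed TPM of the pair.

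Vegfa, the endothelial growth factor, was low, with 6.66, 4.81 and 3.74 TPM in the WT libraries, 2.22, 2.05 and 3.6 in the Lyz2cre libraries and 0.76 in CD11ccre. Its groups did not overlap, and the log2 difference was -0.74 in Lyz2cre (limma adjusted p = 0.179) and -1.76 in CD11ccre (limma adjusted p = 0.0715). Kdm3a, a histone demethylase, overlapped between WT (17.16-20.74 TPM) and Lyz2cre (10.12-18.19 TPM) and was 8.17 TPM in CD11ccre (limma adjusted p = 0.0943 there). P4ha1, a collagen prolyl hydroxylase subunit, ran from 20.96 to 29.39 TPM in WT and from 26.11 to 33.45 TPM in Lyz2cre and was 39.94 TPM in CD11ccre. Mxi1, a MYC antagonist, was above WT in all Lyz2cre libraries by little, at 32.88-36.56 against 27.8-32.81 TPM, and within the WT range in CD11ccre, at 28.39 TPM. Ankrd37 was detected unevenly, at 0.78, 6.15 and 0.84 TPM in WT, 1.59 TPM in 1 Lyz2cre library, and listed at 0 in the others. Ddit4 and Ndrg1 stayed below 2 TPM throughout.

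Set against each other, the Cre lines did not differ in any of the 33 genes by limma at an adjusted p of 0.05 (0 of 33, beside 0.114% of all genes, 0.0439% higher and 0.0702% lower), and 1 gene, Vegfa, had an unadjusted p below 0.05 (0.0441, adjusted p = 0.817), which is 3.03% of the 33 beside 6.1% of all genes. For Epas1 the log2 difference of CD11ccre from Lyz2cre was -0.43, with a 95% interval from -1.14 to 0.28. For Hk2 it was -0.58, with an interval from -1.20 to 0.04, and for Pgam1 -0.28, from -0.62 to 0.06. With CD11ccre given the spread of the other groups, the intervals span 0 for these 3 genes and do not show that the lines act alike.

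A further list of 78 genes of glycolysis, pyruvate use and the HIF system was measured, of which 56 were tested. In Lyz2cre 3 rose, 1 fell and 52 did not pass (7.14% called, beside 6.76% of all genes), and the median log2 difference was -0.12 beside -0.16 over all genes. In CD11ccre 1 rose and 1 fell (3.57% called, beside 2.89%), so both shares were near the background. Arnt2, a paralogue of Arnt that also pairs with HIF alpha, was listed at 0, 0 and 0.11 TPM in WT against 3.31, 4.21 and 9.87 in the Lyz2cre libraries and 6.94 in CD11ccre. It was near undetected in WT and present in every Cre library, below Arnt in all but Lyz2cre replicate 3, and rose in Lyz2cre (log2 difference 2.59 ± 0.39 SE; limma adjusted p = 0.0127) and CD11ccre (2.94; limma adjusted p = 0.0424). The Arnt2 call in Lyz2cre ended without WT replicate 1 (limma adjusted p = 0.0515), WT replicate 2 (0.0597) or Lyz2cre replicate 2 (0.0511). The CD11ccre call ended without any 1 of those 3, WT replicate 3 or Lyz2cre replicate 1 (0.0701 to 0.0977), and it held in 6 of 15 alternatives in all.

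Hmox1, the haem oxygenase that is a target of both HIF and NRF2, rose 3.12-fold in Lyz2cre, from 177.4, 142.7 and 117.97 TPM to 594.84, 419.02 and 354.84 TPM, with 385.01 TPM in CD11ccre (limma adjusted p = 0.00924 and 0.0615). The Lyz2cre call for Hmox1 ended without WT replicate 2 (limma adjusted p = 0.0588). Nampt, which makes the NAD precursor, rose from 69.14, 61.7 and 76.08 TPM to 132.29, 91.79 and 122.39 TPM (limma adjusted p = 0.0455), with 120.77 TPM in CD11ccre (limma adjusted p = 0.107). Mpc2, a subunit of the carrier that takes pyruvate into mitochondria, fell from 305.44, 275.83 and 308.87 TPM to 199.12, 217.09 and 175.54 TPM and to 167.49 TPM in CD11ccre (limma adjusted p = 0.0304 and 0.0482). The Mpc2 call in Lyz2cre ended with median-of-ratios scaling (limma adjusted p = 0.0727) and on leaving out any single library of the 6 (0.0541 to 0.101), and the Nampt call was lost without each of them but Lyz2cre replicate 2 (0.0765 to 0.152). In CD11ccre the Mpc2 call ended too with that scaling (0.160) and without any 1 library (0.0629 to 0.108), and held in 3 of 16 alternatives. Without a filter on low values, all 4 calls in Lyz2cre were lost, at limma adjusted p from 0.0507 to 0.106.

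Among the prolyl hydroxylase genes of the list, Egln1 ran from 20.71 to 22.83 TPM in WT and from 18 to 20.93 TPM in Lyz2cre, Egln2 from 9.49 to 18.67 TPM and from 18.52 to 25.6 TPM, and Egln3 stayed at or below 0.53 TPM, so none was called. The HIF alpha gene Hif3a was listed at 0 in every library. The 8 genes of the pentose phosphate pathway, which branches off after hexokinase, had limma adjusted p from 0.0612 for Tkt, the transketolase, to 0.839 for Rpia in Lyz2cre. Tkt measured 220.25, 235.11 and 236.79 TPM in the WT libraries, 301.71, 297.31 and 288.08 in the Lyz2cre libraries and 265.82 in CD11ccre, without overlap. G6pdx, H6pd and Rpe were also above WT in every Lyz2cre library, Taldo1 was below it in each, and Pgls, Pgd and Rpia overlapped. Over all tested genes 30.8% did not overlap, with 7.45% higher and 23.3% lower in Lyz2cre.

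Promoter windows were read for hypoxia response element cores, ACGTG and GCGTG on both strands, from RefSeq windows of GRCm38.p6 that run from 250 bases before a gene's start to 50 after it. Of the 36 genes 33 matched, with 51 windows, and Epas1, Bnip3l and Ndrg1 had no entry. ACGTG was found in 49.0% of the 51 windows, beside 25.9% of the windows of all tested genes, and GCGTG in 51.0% beside 51.3%. Several of the genes were chosen as known HIF targets, so these shares are not independent of that choice. Windows of 1 gene can also overlap and hold the same match. The following windows are shown for the rising Hk3 and Pgam1 and for Hk2 and Bnip3, whose Lyz2cre libraries were all below WT, with matches to either core in capitals and 5′ to 3′ on the gene's strand. They lie at chr13:55021336-55021635 (minus strand) for Hk3, chr19:41911621-41911920 (plus) for Pgam1, chr6:82774405-82774704 (minus) for Hk2 and chr7:138909457-138909756 (minus) for Bnip3.
Hk3: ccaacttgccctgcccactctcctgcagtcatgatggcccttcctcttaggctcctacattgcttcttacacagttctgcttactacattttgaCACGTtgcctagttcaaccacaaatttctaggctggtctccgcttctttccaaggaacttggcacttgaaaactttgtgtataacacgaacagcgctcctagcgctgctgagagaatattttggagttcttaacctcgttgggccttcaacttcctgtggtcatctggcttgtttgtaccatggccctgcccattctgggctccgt
Pgam1: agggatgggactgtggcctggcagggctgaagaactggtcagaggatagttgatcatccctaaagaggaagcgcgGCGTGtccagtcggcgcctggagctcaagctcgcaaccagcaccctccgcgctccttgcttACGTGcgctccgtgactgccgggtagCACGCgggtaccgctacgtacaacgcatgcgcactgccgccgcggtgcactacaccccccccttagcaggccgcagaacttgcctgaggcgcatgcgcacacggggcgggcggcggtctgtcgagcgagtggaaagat
Hk2: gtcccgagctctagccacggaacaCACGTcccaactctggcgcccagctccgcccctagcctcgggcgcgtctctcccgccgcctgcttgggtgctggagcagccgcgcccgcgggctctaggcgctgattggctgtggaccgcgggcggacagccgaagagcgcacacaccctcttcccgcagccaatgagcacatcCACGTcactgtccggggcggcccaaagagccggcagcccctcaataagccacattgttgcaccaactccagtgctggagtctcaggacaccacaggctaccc
Bnip3: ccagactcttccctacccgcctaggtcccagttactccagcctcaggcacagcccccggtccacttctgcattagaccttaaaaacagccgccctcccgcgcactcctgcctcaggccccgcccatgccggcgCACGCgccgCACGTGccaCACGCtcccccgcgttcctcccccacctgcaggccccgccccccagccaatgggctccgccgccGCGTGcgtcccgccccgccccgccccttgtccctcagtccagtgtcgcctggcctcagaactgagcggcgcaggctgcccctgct
The window of Hk3 held 1 match, that of Pgam1 held 3, that of Hk2 held 2 and that of Bnip3 held 5, where matches on opposite strands may overlap. Among the windows shown, those of higher and of lower genes in Lyz2cre both held the cores. Either core was found in 74.5% of the 51 windows and in 62.7% of the windows of all tested genes. These few windows therefore cannot show whether the cores go with a direction. Among the others, the first of the 2 Ldha windows held 7 matches, while the only windows of Vhl, Gpi1 and Tpi1 held none of these letters. A match is a description of sequence and says nothing of binding, which was not measured.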

How the data were processed

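Poly(A) RNA of alveolar macrophages went into directional libraries read from 1 end by an Illumina instrument, per the labels' protocols. The values are TPM as the authors deposited them, in 1 table of 47643 genes for the 7 libraries; cutadapt 2.3, STAR 2.7.0d, RSEM 1.3.1 and mm10 are named, without parameters, per the submitters' processing notes. No source used here gives the annotation release or strand setting.

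Libraries were grouped by their titles. Values were tested as log2(TPM + 1), which understates changes of low genes, with limma 3.58.1 in R 4.3.3. Genes with a mean of at least 1 TPM (11397) entered 1 fit of all 7 libraries, with 4 residual degrees of freedom, and variances were shrunk to a trend on mean level (prior of 3.35). Its two-sided tests were adjusted over all of these genes (Benjamini-Hochberg, threshold 0.05). CD11ccre adds no residual degree of freedom. N-fold values are ratios of mean TPM. Family shares were compared with exact permutation tests (SciPy 1.17.1). Coordinates and overlaps came from GENCODE M21, in which 7 of the 36 genes overlap another on their strand, Epas1 and Hif1a included. Copies were sought with BLAST 2.17.0. The fit was tested on simulated data.

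Genes were given library by library where called, where WT and Lyz2cre libraries did not overlap or where they belonged to a compared family; the HIF factors, Pgk1, Kdm3a, Ankrd37, the Egln genes and the abundant enzymes were described after their values were seen. The genes and lists were chosen with earlier results of these data known. The alternatives were other pseudocounts, filters, scalings and limma options, the replicate number as a block and leaving out each library.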

Additional observations from a re-analysis of the deposited data

How the results depend on the processing

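In Lyz2cre against WT the number of called HIF pathway and glycolysis genes was 3 with pseudocounts of 0.1 and 5, a mean of at least 5 TPM, each of 3 scalings, robust fitting and without CD11ccre. It was 1 without a filter on low values, without the trend and with the replicate block, and 1 on leaving out any single WT or Lyz2cre library (range 1 to 3 over all leave-outs); the gene that passed throughout was Epas1. In CD11ccre against WT the count of 1 became 0 with a pseudocount of 5, without a filter, after rescaling without mitochondrially encoded genes, Ftl1, Fth1 and Chil3, without the trend, with the replicate block and in every leave-out (range 0 to 0). Between the Cre lines it was 0 in every setting. A fit without 1 WT or Lyz2cre library has 3 residual degrees of freedom in place of 4, and the blocked fit has 2.

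Same-numbered WT and Lyz2cre libraries correlated by -0.015, 0.043 and 0.066 in their deviations from the group means, so the numbers were not taken as pairs; with the replicate block Epas1 in Lyz2cre had a limma adjusted p of 0.0212, Hk3 0.0660 and Pgam1 0.0685, and Epas1 in CD11ccre 0.112. Under other scalings, directions reversed for these among the 17 of the 36 genes followed through the settings, none of them called: Hif1a in Lyz2cre became 0.04 with median-of-ratios scaling and 0.04 with quantile normalization, and Mxi1 in CD11ccre 0.20 and 0.19. Relative to the all-gene median others turned too, such as Pfkfb3 (-0.10 to 0.06) and Bnip3l (-0.12 to 0.04) in Lyz2cre and Ldha (-0.21 to 0.08) in CD11ccre, and the median of the 33 genes in Lyz2cre turned from -0.10 to 0.07 with median-of-ratios scaling. The Pfkm share difference ran from -0.0809 to 0.205 percentage points over the leave-outs and the Aldoa share from -0.783 to 0.461, while the Hk2 share ran from -22.6 to -20.2 and the Hk3 share from 15.6 to 18.3. Over all genes the calls ran from 203 to 887 (771 as reported) in Lyz2cre, from 21 to 493 (329) in CD11ccre and from 1 to 210 (13) between the Cre lines. Median-of-ratios scaling turned 247 higher and 524 lower calls in Lyz2cre into 339 and 211. Depth is unknown, so what low genes such as Ddit4 could show is not known.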
